A study of Mus musculus with 8 samples.

Results

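The Obp1 group consists here of 6 genes of the lipocalin family, Obp1a, Obp1b, Gm14743, Gm14744, 5430402E10Rik and Mup4. They were taken by gene name from the 27532 genes measured by RNA sequencing in the mouse vomeronasal organ, the chemosensory organ in the nasal septum that detects pheromones. The genes were chosen from values in these same libraries, for their share of all transcripts, their coupling and their spread between animals, so those values are given as a description. Tissue came from 4 adult Tex15 heterozygous animals, which served as controls, and 4 adult Tex15 knockout animals. Heterozygous replicate 1 was male and replicates 2 to 4 were female, and knockout replicate 1 was female and replicates 2 to 4 were male. Ages ran from 11.4 to 14.6 weeks, with heterozygous replicate 1 at 11.4 and heterozygous replicate 2 at 14.6 weeks. The titles of these 2 libraries carry numbers of an earlier series than those of the other 6, whose animals were 11.9 or 12.1 weeks old, and the labels do not say what the numbers stand for. The strain and the kind of Tex15 allele are not given in the sources used here.

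Lipocalins are small secreted proteins folded into a barrel that holds a hydrophobic molecule. Odorant binding proteins are lipocalins released by glands of the nose into mucus, where they carry odorants and pheromones, and major urinary proteins are related lipocalins best known from liver and urine, some of which are also made in nasal tissue. In the vomeronasal organ such proteins lie in the fluid that bathes the sensory neurons.

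Values are TPM (a level corrected for gene length, scaled so that each library sums to 1000000), with 17883944 to 26415486 reads per library recovered from the deposited values. Tex15 was at 2.27 to 2.81 TPM in heterozygous and 0.870 to 1.23 TPM in knockout libraries, without overlap. Omp, a marker of mature sensory neurons, was at 66.6 TPM in heterozygous replicate 1 and at 571 to 943 TPM in the other 7 libraries. Mitochondrial genes held 6.51% of all TPM in heterozygous replicate 1 and up to 12.4% elsewhere.

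Of the 6 genes, 5 lay on the X chromosome within 381 kb (77864758 to 78245921 in GRCm38), and Mup4 lay on chromosome 4 (59956804 to 59960710). The sequence before each gene's start is shown first because the 6 genes moved together and 2 pairs of them have near-identical promoters. Each line runs from 60 bases before the TATA word closest to the gene's start to 30 bases from that word's first base. For Mup4 it ends with the word, because the RefSeq start used here lies 43 bases inside the gene as GENCODE places it, and the last 22 bases printed lie within the GENCODE gene. The RefSeq start of Obp1b lies 31 bases inside its GENCODE gene, and the other 4 starts are the same in both. The capitals mark the TATA word (TATAAA or TATATA, overlapping words joined).
Gm14744: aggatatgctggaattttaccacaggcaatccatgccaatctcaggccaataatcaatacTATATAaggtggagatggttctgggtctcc
5430402E10Rik: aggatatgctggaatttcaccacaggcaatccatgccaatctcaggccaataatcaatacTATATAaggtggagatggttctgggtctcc
Obp1a: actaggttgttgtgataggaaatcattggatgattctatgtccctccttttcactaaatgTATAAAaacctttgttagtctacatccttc
Obp1b: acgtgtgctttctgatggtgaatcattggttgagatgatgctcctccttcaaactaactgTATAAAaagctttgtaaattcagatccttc
Gm14743: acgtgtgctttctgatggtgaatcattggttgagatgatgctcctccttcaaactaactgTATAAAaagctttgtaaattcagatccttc
Mup4: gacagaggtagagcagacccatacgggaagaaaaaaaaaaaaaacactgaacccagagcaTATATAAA
The stretches are at chrX:77864666-77864755 (plus strand) for Gm14744, chrX:77925065-77925154 (minus) for 5430402E10Rik, chrX:78091375-78091464 (minus) for Obp1a, chrX:78186687-78186776 (plus) for Obp1b, chrX:78245962-78246051 (minus) for Gm14743 and chr4:59960689-59960756 (minus) for Mup4, all from RefSeq on GRCm38.p6.

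Obp1b and Gm14743 were identical over the 90 bases, and Gm14744 and 5430402E10Rik had the same base at 89 of 90 positions. Obp1a had the same base as Obp1b at 63 of 90 positions. Between the Gm14744 pair and the other 4 genes, 27 to 31 positions were the same, and between Mup4 and the 5 X-linked genes 23 to 28, read over the same 90 positions. A TATA word stood in the 250 bases before the RefSeq start of all 6 genes and, on either strand, in 15.6% of 32851 RefSeq promoters. The word CCAAT, on either strand, stood before all 5 X-linked genes, not before Mup4, and before 33.8% of all promoters. The steroid receptor word AGAACA, searched on both strands, stood before Obp1a and no other of the 6 genes, and before 16.1% of all promoters. The GATA words AGATAA or TGATAA likewise stood before Obp1a alone, and before 16.6% of all promoters. The forkhead words TGTTTAC or TGTTTGC stood before none of the 6 genes and before 7.29% of all promoters.

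The same 2 pairs had near-identical transcripts. Obp1b and Gm14743 were 99.3% identical over 757 aligned bases, and Gm14744 and 5430402E10Rik 98.998% identical over 798. Of all windows of 100 bases, 42.7% were unique to Obp1b, 39.4% to Gm14743, 57.1% to Gm14744 and 56.5% to 5430402E10Rik, so the authors' counting could have split reads within each pair, and the level of each partner is uncertain. Obp1a and Mup4 shared no window of that length with another gene (100% unique).

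The group's output ranged from a trace to 25.1% of the transcriptome. Its summed share of all TPM was 20.8%, 25.1%, 0.0499% and 0.0536% in heterozygous replicates 1 to 4. It was 4.60%, 16.7%, 0.0595% and 0.635% in knockout replicates 1 to 4. The highest library, heterozygous replicate 2, stood 502-fold above the lowest, heterozygous replicate 3; both genotypes held libraries at either end. In reads, which count the short transcripts less, the shares ran from 0.0174% in heterozygous replicate 3 to 12.7% in heterozygous replicate 2. In bulk tissue a smaller number of producing cells cannot be told apart from less RNA per cell.

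**Figure D1:**
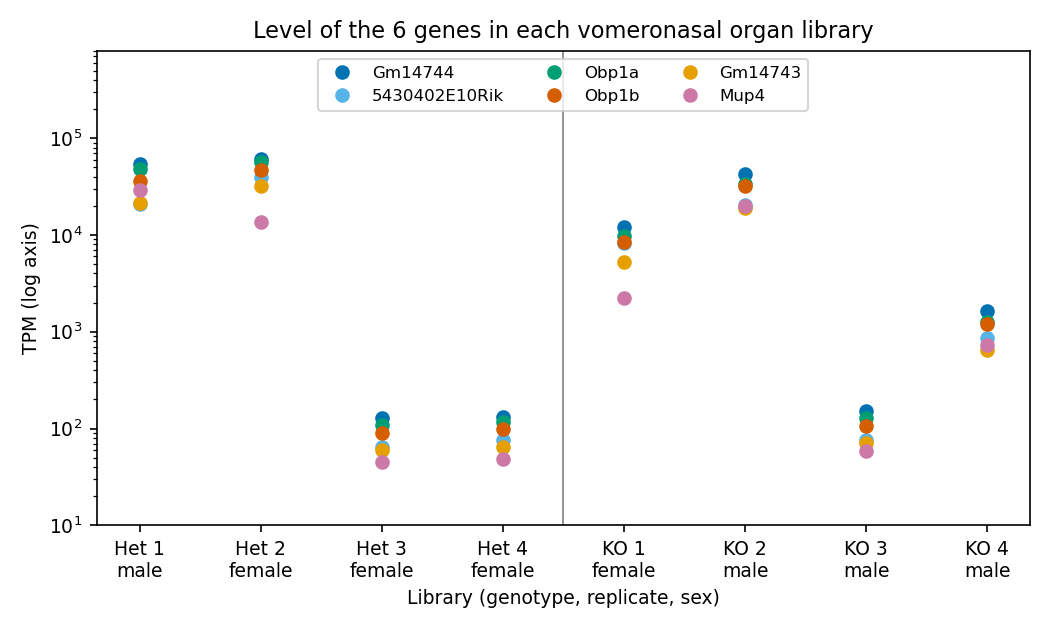
Level of each of the 6 genes (TPM, log axis) in each library, ordered by genotype (Het, heterozygous; KO, knockout) and replicate, with the animal's sex; each point is 1 gene in 1 library. In every library the 6 points stay together, at 45.1 to 152 TPM in heterozygous replicates 3 and 4 and knockout replicate 3 and at 13492 to 61571 TPM in heterozygous replicates 1 and 2 and knockout replicate 2.

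Obp1a encodes an odorant binding protein of nasal mucus. It was at 47703, 57184, 110 and 116 TPM in heterozygous replicates 1 to 4 and at 9749, 33248, 129 and 1258 TPM in knockout replicates 1 to 4. Heterozygous replicates 1 and 2 were the highest of all 8 libraries and replicates 3 and 4 the lowest, so the knockout libraries lay between them. Obp1b encodes the partner with which Obp1a is known to pair in mucus. It was at 35938, 47098, 90.6 and 98.6 TPM in heterozygous replicates 1 to 4 and at 8512, 31958, 106 and 1216 TPM in knockout replicates 1 to 4. The order of the libraries was the same as for Obp1a.

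Gm14744, a gene whose RefSeq synonyms include Obp1f, had the highest level of the 6 in every library. It was at 53563, 61571, 129 and 132 TPM in heterozygous replicates 1 to 4 and at 11954, 42365, 152 and 1638 TPM in knockout replicates 1 to 4. Its near-copy 5430402E10Rik was at 20673, 39316, 64.3 and 75.9 TPM in heterozygous and at 8306, 20579, 77.0 and 861 TPM in knockout replicates 1 to 4. Gm14743, the near-copy of Obp1b, was at 21140, 32054, 60.1 and 64.0 TPM in heterozygous and at 5249, 18847, 70.4 and 642 TPM in knockout replicates 1 to 4. All 3 genes had heterozygous replicate 3 as the lowest and heterozygous replicate 2 as the highest library, with overlapping genotypes.

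Mup4, a major urinary protein gene, was at 29068, 13492, 45.1 and 48.7 TPM in heterozygous replicates 1 to 4 and at 2218, 19956, 59.1 and 733 TPM in knockout replicates 1 to 4. It differed from the others in its highest library, which was heterozygous replicate 1.

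All 6 genes ranked among the 20 most abundant genes in heterozygous replicates 1 and 2 and in knockout replicate 2, and 5 of them did in knockout replicate 1. Gm14744 was the most abundant gene of all in heterozygous replicate 2. In heterozygous replicate 3 the 6 genes ranked from 855 to 2666.

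In the 3 libraries with the lowest values, the levels still rested on many reads, for Obp1a on 765 in heterozygous replicate 3, 1016 in heterozygous replicate 4 and 1041 in knockout replicate 3. Relative to each gene's highest library, the 6 genes stood at 0.155% to 0.209% in heterozygous replicate 3, 0.167% to 0.215% in heterozygous replicate 4 and 0.196% to 0.247% in knockout replicate 3. As a possible measure of how much signal of one library can show in another, 4 Y-linked genes together were at 0.161% to 0.380% of the male mean. These values are for the 4 female libraries, from 5 to 14 reads. Xist, a female transcript, was at 0.245% to 0.481% of the female mean in the 4 males. Both are shares of a mean and not of the highest library, and the source of these reads was not tested. The part of signal from other libraries in the lowest values of the Obp1 group was not tested either.

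The composition of the output changed far less than its size. As a share of the summed TPM of the 6 genes, Gm14744 held 24.6% to 26.0%, Obp1a 19.8% to 22.9%, Obp1b 17.3% to 19.2% and Gm14743 10.1% to 12.8% over the 8 libraries. The ratio of Gm14744 to Obp1b, which are not near-copies, stayed between 1.31 and 1.49 while the genes themselves spanned 478-fold and 519.7-fold. This ratio was the steadiest of the 15 pairs. That of 5430402E10Rik to Obp1a ranged 1.97-fold, and that of 5430402E10Rik to Mup4, the least steady, 5.27-fold. The larger movements were those of 5430402E10Rik, at 9.93% to 18.1%, and Mup4, at 4.82% to 14.0%.

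**Figure D2:**
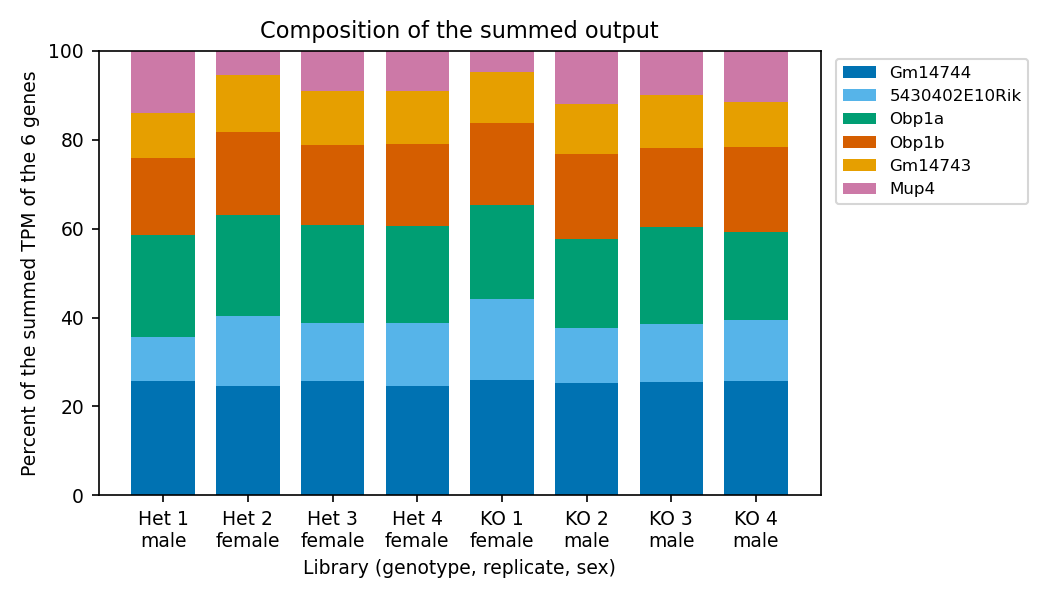
Percent of the summed TPM of the 6 genes that each gene held, in each library (Het, heterozygous; KO, knockout; with sex); the segments of a bar add to 100. The bars look alike although the sums behind them differ up to 502-fold, with Mup4 thinnest in heterozygous replicate 2 and knockout replicate 1.

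Mup4 shifted against the X-linked genes. The ratio of Mup4 to Obp1a was 0.609 in heterozygous replicate 1 and 0.6002, 0.457 and 0.583 in knockout replicates 2 to 4, the 4 males. It was 0.236, 0.411 and 0.418 in heterozygous replicates 2 to 4 and 0.228 in knockout replicate 1, the 4 females. The male and female ratios did not overlap, while those of the 2 genotypes did. Of all tested genes, 0.0492% had a ratio to Obp1a that was higher in all 4 males than in all 4 females, though for a gene of steady level that ratio only mirrors Obp1a. The gap is narrow, and the values on either side of it, 0.418 and 0.457, as well as 0.411, come from the 3 libraries with trace levels, where the part of signal from other libraries was not tested. This ratio was picked out after its values were seen and is not tested.

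Coupling between the 6 genes was near complete. On the log2(TPM + 0.5) scale, the 15 pairs had a Pearson r of 0.981 to 0.9999 (median 0.998) and a Spearman rho of 0.929 to 1 over the 8 libraries. Without the 2 libraries farthest from the median, r was 0.964 to 0.9998, within genotypes 0.981 to 0.9999, and among the 6 libraries with later title numbers 0.984 to 0.9999. All pairs with r under 0.995 involved Mup4. These values are a description with no test, since coupling was part of how the genes were chosen, and the 3 libraries at 499 to 595 TPM in sum weigh heavily in each r.

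The 6 genes also had the 6 widest spreads between libraries among the 20305 genes tested. Their SDs of log2(TPM + 0.5) over the 8 libraries were 4.02 to 4.06, where the median tested gene had 0.43 and the 99th percentile was 1.61. Within genotypes the SDs were 4.34 to 4.38, so the spread lay inside the groups. The genes were chosen with this spread in view, and it is given as a description.

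**Figure D3:**
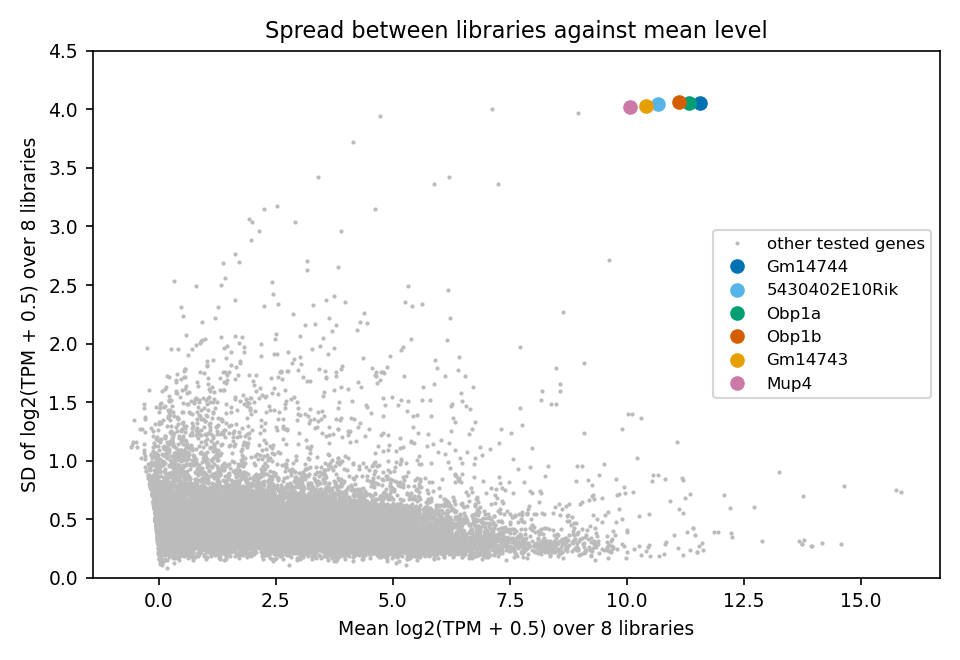
SD of log2(TPM + 0.5) over the 8 libraries against the mean of the same values, for each of 20305 tested genes (grey points) and the 6 genes of the Obp1 group (coloured points). The 6 genes sit at SDs of 4.02 to 4.06, above all other points.

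The X-linked genes share their stretch of the chromosome with other copies. Between Gm14744 and Gm14743 the annotation lists 9 genes, of which 7 have values here, the 5 members, the odorant binding protein gene Gm5938 and the pseudogene Gm14750. Gm14750 was at 1753, 2930, 5.70 and 5.21 TPM in heterozygous and 697, 1888, 7.11 and 72.5 TPM in knockout replicates 1 to 4, the order of Obp1a except for the lowest 2 and for heterozygous replicate 1 and knockout replicate 2. Its transcript was 99.03% identical to that of Gm14744 over 516 aligned bases, so its reads cannot be assigned with certainty. Gm5938 was at 79.9, 928, 0.578 and 0.921 TPM in heterozygous and 61.9, 185, 1.17 and 4.15 TPM in knockout replicates 1 to 4. It followed the same direction but not the same ratio, with 1.62% of the Obp1a level in heterozygous replicate 2 and 0.168% in heterozygous replicate 1. The tested genes flanking the run did not follow. Prkx, a protein kinase gene, lay between 12.5 and 30.2 TPM, with a Pearson r of −0.70 with Obp1a, and Prrg1 on the other side between 0.894 and 1.99 TPM with an r of −0.82.

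Of the 11581 other genes that averaged 5 TPM or more, 10 had a Pearson r of 0.9 or more with Obp1a over the 8 libraries (0.0863%). The 5 most alike were Gm14750 (r = 0.998), BC051076 (0.993), Mup5 (0.992), Lcn11 (0.986) and Crisp1 (0.981). With Mup4 the 5 most alike were BC051076 (0.995), Mup5 (0.994), Klk14 (0.994), Lcn11 (0.992) and Gm14750 (0.983), and 4 genes were named by both. Without the 2 libraries farthest from the median, r was 0.966 to 0.996 for the 5 named for Obp1a and 0.968 to 0.993 for the 5 named for Mup4. For Obp1a the 2 left out were heterozygous replicates 3 and 4, and knockout replicate 3, also at trace levels, stayed in. The gap between high and low libraries thus remained in these values. Of the 10 genes at 0.9 or more with Obp1a, Gm14750, BC051076, Mup5 and Lcn11 were at 5 TPM or more in all 8 libraries. The other 6, Crisp1 and Klk14 among them, reached that mean only through the libraries where the Obp1 group was high, so the filter favoured this pattern, their r values are not read as likeness, and the count of 10 supports nothing. These correlations are over libraries that share depth and scaling, and they carry no test.

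Mup5, another major urinary protein gene, was at 8472, 9170, 17.0 and 18.9 TPM in heterozygous and 1102, 8071, 40.5 and 363 TPM in knockout replicates 1 to 4. Lcn11, a lipocalin gene on chromosome 2, was at 7347, 4384, 66.5 and 115 TPM in heterozygous and 1415, 5652, 161 and 430 TPM in knockout replicates 1 to 4. Both were lowest in heterozygous replicate 3, and Lcn11 spanned 110-fold where Obp1a spanned 520-fold.

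Crisp1, which encodes a secreted cysteine-rich protein best known from the epididymis, was at 386, 252, 0.692 and 0.429 TPM in heterozygous and 245, 267, 0.864 and 24.2 TPM in knockout replicates 1 to 4. Klk14, a secreted serine protease gene, was at 52.8, 18.6, 0.257 and 0.137 TPM in heterozygous and 8.94, 32.8, 0.592 and 3.69 TPM in knockout replicates 1 to 4. BC051076, annotated as an antisense transcript on chromosome 5, was at 1798, 1298, 9.65 and 14.6 TPM in heterozygous and 401.2, 1831, 9.58 and 99.96 TPM in knockout replicates 1 to 4. How the counting used strand is not given in the sources used here, so BC051076 could hold reads of an overlapping gene.

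**Figure D4:**
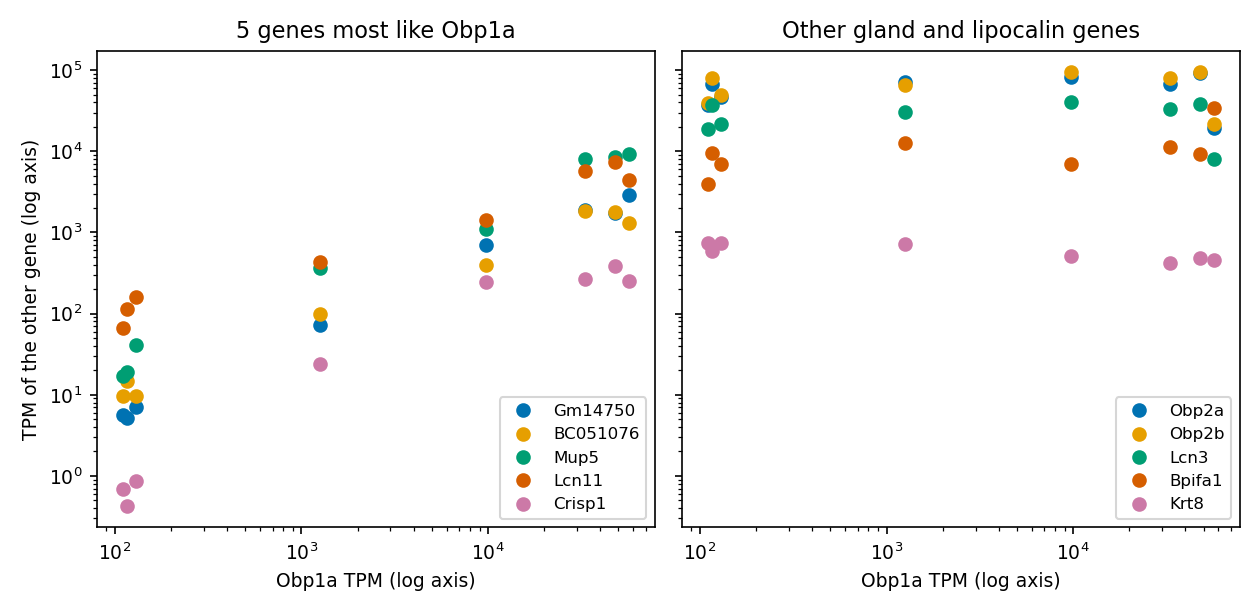
TPM of other genes against TPM of Obp1a in the 8 libraries, both axes log; left, the 5 genes of highest Pearson r with Obp1a, which were picked for moving with it, right, abundant gland lipocalins (Obp2a, Obp2b, Lcn3), the nasal secretory gene Bpifa1 and the epithelial keratin Krt8; each point is 1 library. The genes on the left span at least 110-fold, with Crisp1 under 1 TPM in the 3 lowest libraries, and those on the right at most 8.63-fold.

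The most abundant other lipocalins did not share the pattern. Obp2a, Obp2b and Lcn3, lipocalins of nasal and vomeronasal glands, had Pearson r values with Obp1a of 0.02, 0.04 and −0.09 and Spearman rho values of 0.14, 0.10 and 0.10. Obp2a was at 92737, 19114, 37455 and 67431 TPM in heterozygous and 81847, 67031, 46147 and 70865 TPM in knockout replicates 1 to 4. It was therefore lowest in heterozygous replicate 2, where the Obp1 group was highest, and spanned 4.85-fold. Among 16 other lipocalin genes with values, Lcn11 reached an r of 0.9 with values of at least 66.5 TPM in every library. Gm5938 reached it too, but averaged 5 TPM only through the libraries where the Obp1 group was high, and 2 averaged too little to be tested. Of 16 other major urinary protein genes, 12 averaged 0.0912 to 0.432 TPM, below the filter, and none of these passed 0.913 TPM in any library. Mup3 and Mup6, at no more than 12.1 and 9.29 TPM, passed it through the libraries where the Obp1 group was high, so their r values are not read as likeness. Mup7 averaged 0.702 TPM (r = 0.59), which leaves Mup5 as the abundant one.

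Lists of other cell types stood beside the group as follows. None of the genes on 9 lists of secreted gland proteins, gland epithelium, mature and immature neurons, olfactory supporting cells, ciliated cells, plasma cells, erythrocytes and cartilage reached an r of 0.9 with Obp1a (0 genes on each list). Of all tested genes 0.0936% did, so a count of 0 on lists this short says nothing about these cell types. Of the 17 secreted gland proteins tested, Bpifa1, the most abundant, had an r of 0.60, with 34164 TPM in heterozygous replicate 2 and 3959 to 12780 TPM in the others. Ltf and Dmbt1, antimicrobial proteins of secretions, had r values of −0.70 and −0.51. Some less abundant genes of this list spread widely without following the Obp1 group, and were picked out after their values were seen. Bpifb9b, a gene of the BPI fold family like Bpifa1, was at 1926 TPM in heterozygous replicate 2 and 14.2 to 252 TPM in the others (r = −0.0041). Bpifb9a, Bpifb4 and Bpifb6 spanned 68.4-fold, 162-fold and 570.2-fold, each highest in heterozygous replicate 2, with r values of 0.14, 0.07 and 0.36.

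Summed over its markers, each list was also set against the sum of the Obp1 group over the 8 libraries by Spearman rho. Secreted gland proteins summed to 13104 to 44439 TPM (rho 0.29) and gland epithelium to 1182 to 1859 TPM (rho −0.74). Most of the gland epithelium sum came from the keratin genes Krt8 and Krt18, which averaged 586 and 596 TPM. Single genes of that list had r values with Obp1a from −0.95 for Spdef to 0.67 for Elf5, with only Elf5 positive. Mature neuron markers summed to 456 to 1569 TPM (rho −0.86) and immature neuron markers to 125 to 317 TPM (rho −0.64). Within the mature neuron list 5 of 7 markers had an r with Obp1a of −0.82 to −0.54, while Gng13 had 0.45 and Stoml3 0.14. Of 20299 other tested genes 95.1% had an r below 0, with a median of −0.72. The count of 5 of 7 therefore says nothing particular about neurons. Supporting cell markers summed to 3676 to 9753 TPM (rho −0.02) and ciliated cell markers to 585 to 1780 TPM (rho −0.12). Plasma cell markers summed to 3196 to 13043 TPM (rho −0.74), erythrocyte markers to 3900 to 20930 TPM (rho 0.60) and cartilage markers to 4.54 to 24.6 TPM (rho −0.76). The fixed sum of TPM enters all of these values, and the part of these cell types in the group's spread was not tested.

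Because TPM has a fixed sum, the group's share lowers the values of all other genes in the same library. Taking the 6 genes out of the sum raised every other gene by 0.34 and 0.42 on the log2 scale in heterozygous replicates 1 and 2, by 0.26 in knockout replicate 2 and 0.07 in knockout replicate 1, and by less than 0.01 in the other 4. As deposited, 95.1% of 20299 other tested genes had an r below 0 with Obp1a, with a median of −0.72, and after the rescaling 87.6% did, with a median of −0.52. The median tested gene differed by 0.19 between knockout and heterozygous libraries as deposited and by 0.06 after the rescaling. Genes called by genotype went from 119 (43 higher, 76 lower) to 106 (21 higher, 85 lower), and to 155 (28 higher, 127 lower) with median-ratio scaling.

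The study compared knockout with heterozygous animals, and the 6 genes were not called. In the limma fit to all tested genes with genotype and sex as terms, 119 genes were called (0.586%, with 0.212% higher and 0.374% lower), and 0 of the 6 genes were among them, with 0 at an unadjusted p under 0.05 (0.583 to 0.925). Limma-voom on recovered reads, added after seeing the data, also called 0 of the 6 genes, and 107 of all 20237 genes in that fit (0.529%). Over all genes 3.1% had an unadjusted p under 0.05 in the fit with genotype and sex. Unadjusted p-values under 0.05 came with some other settings and in both directions. All 6 genes had them, with knockouts lower, without knockout replicate 1 (0.0149 to 0.0435), where 1.06% of all tested genes did in that direction. Without heterozygous replicate 4, 5 of the 6 did (0.00295 to 0.0887 over the 6), against 1.65% of all. With knockouts higher, all 6 had them with a title number series term (0.00354 to 0.0211, against 1.02% of all) and in the later-numbered libraries alone (0.00451 to 0.00566, against 0.932% of all). No adjusted p of the 6 passed in these 4 settings, and since the genes move as one, their counts are not separate observations. Obp1a averaged 26278 ± 30460 TPM in the 4 heterozygotes and 11096 ± 15380 TPM in the 4 knockouts (mean ± SD), a fitted log2 difference of −0.67 (SE 1.96, limma adjusted p = 0.9995). Gm14744, 5430402E10Rik, Obp1b and Gm14743 had fitted differences of −0.53, −0.19, −0.49 and −0.54, with SEs of 1.95 to 1.97. For Mup4 the difference was −1.05 (SE 1.88, limma adjusted p = 0.9995). Heterozygous replicate 1 and knockout replicate 1 are each the only animal of their sex in their group. With the sex term they weigh more in the fitted differences than any other library, so these are not differences of plain group means. The SEs borrow from the spread of other genes, and with robust variance they were 3.61 to 3.79. The median tested gene had 0.19.

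Groups overlapped for all 6 genes, and the direction rested on single libraries. Without heterozygous replicate 1 the differences were 2.83 to 3.84, without heterozygous replicate 2 they were 0.0032 to 1.007, without knockout replicate 3 they were 0.12 to 0.95, and without knockout replicate 1 they were −4.93 to −4.22. Without knockout replicate 4, 5430402E10Rik had 0.14 and the other 5 genes stayed below 0, and without heterozygous replicate 3, heterozygous replicate 4 or knockout replicate 2 all 6 lay between −1.93 and −0.94. The difference also changed sign without the sex term, to 0.15 to 0.38.

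Title number series separated the heterozygous libraries. Among the 6 later numbers, heterozygous replicates 3 and 4 were at 0.0499% and 0.0536% of all TPM, and knockout libraries ran from 0.0595% to 16.7%, so all 4 knockout libraries were above both, as in 0.975% of all tested genes. These shares were used to choose the genes, and nothing is read from this order. Knockout replicate 3, at 0.0595%, lay close to the heterozygous libraries, and all 3 were at trace levels. In the limma fit to these 6 libraries without the sex term, the differences were 4.54 to 4.71, with adjusted p-values of 0.294 to 0.343 over all genes. The earlier numbers held 2 heterozygous libraries, at 20.8% and 25.1%, and no knockout, so it gives no value of its own. With series as a term over all 8 libraries the differences were 4.85 to 6.29 (limma adjusted p = 0.248 to 0.629). The later-numbered libraries were not alike either, with knockout replicates 2 and 3, both male and 11.9 weeks old, at 16.7% and 0.0595%.

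**Figure D5:**
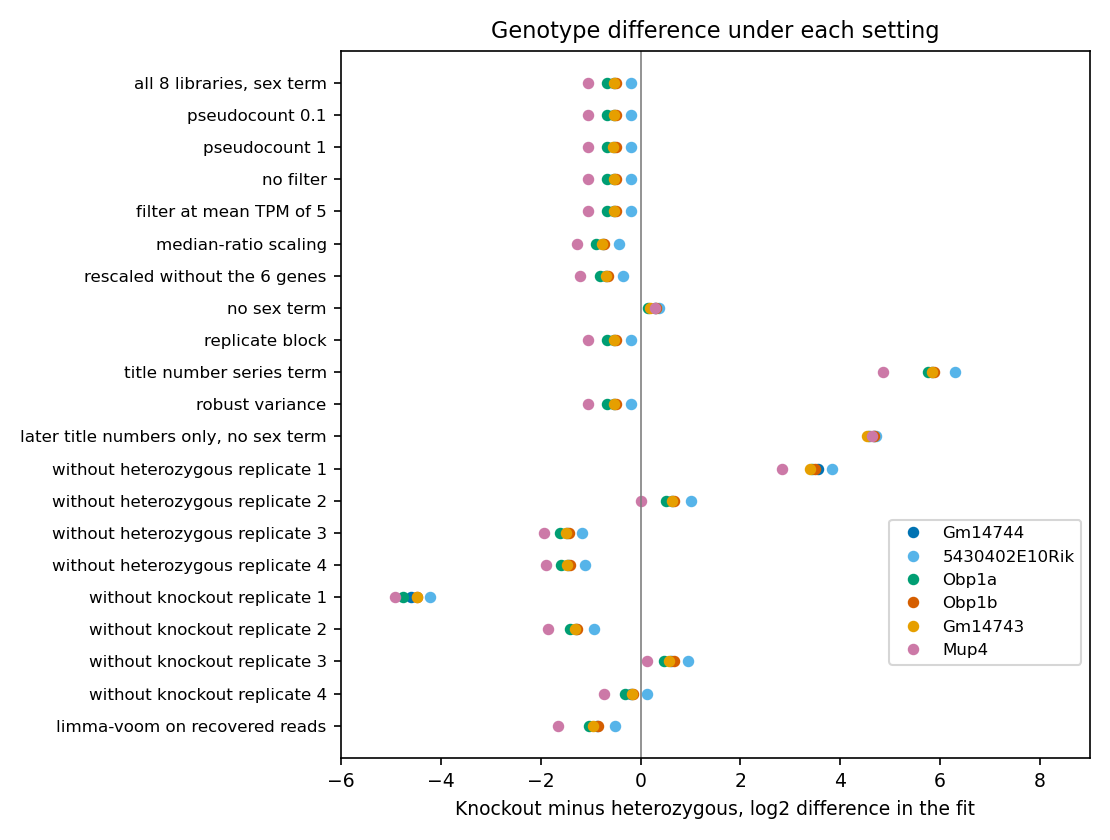
Fitted knockout minus heterozygous difference (log2 scale, x axis) of each of the 6 genes under each setting of the fit (rows); points are genes and the vertical line marks 0. The points lie left of 0 in the fit to all 8 libraries with the sex term and right of 0 with a title number series term, in the later-numbered libraries, with sex left out of the fit, and without heterozygous replicates 1 or 2 or knockout replicate 3.

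Most of the genes are X-linked, so sex was read from the same fit. Male minus female differences were 1.13 to 1.64 for the 5 X-linked genes (SE 1.95 to 1.97) and 2.66 for Mup4 (SE 1.88), and 0 of the 6 genes were called, where 0.0492% of all tested genes were (limma, adjusted p = 0.99995 for each, unadjusted p 0.171 to 0.573). Summed shares were 0.0499% to 25.1% in the 4 females and 0.0595% to 20.8% in the 4 males, which overlap across nearly the whole range. Without heterozygous replicate 1 the sex differences were −2.90 to −1.22, and without knockout replicate 1 they were 5.16 to 6.54. The interaction of genotype and sex had terms of −8.19 to −7.76 (SE 2.67 to 2.79, limma adjusted p = 0.735 to 0.822), and 0 of the 6 genes were called, against 27 of all tested genes (0.133%). Heterozygous males and knockout females are 1 library each, so these terms rest on 2 single animals and say nothing of whether the difference changes with sex.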

How the data were processed

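RNA sequencing was done on the vomeronasal organ of 8 mice, 4 per genotype. The authors deposited TPM values with 1 column per library, each summing to 1000000 over 27532 genes. The submitters' processing notes name Trim Galore 0.6.5, cutadapt 5.1, STAR 2.7.11b and deepTools 3.5.5 and the builds mm10 and GRCm38. Neither the program that counted reads nor how it handled reads with several matches is given in the sources used here. Columns were matched by title, and 0 were left unused.

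The 20305 genes averaging 0.5 TPM or more entered a limma fit (version 3.58.1, R 4.3.3; trended eBayes) of log2(TPM + 0.5) on genotype and sex. Benjamini-Hochberg adjustment covered all 20305 genes, and an adjusted p under 0.05 was a call. Whole reads were recovered by multiplying each value by the gene's exon length in GENCODE M21 and dividing by the worth of 1 read, which put 97.6% to 98.1% of values under 20 reads within 0.02 of a whole number. Promoters came from RefSeq (GRCm38.p6), where 6 of 6 genes matched. Transcripts were aligned with Biopython 1.88. The fit was run on simulated data with independent genes of equal, small spread. That says nothing of the fit for genes as variable and coupled as these 6.

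The genes and gene lists were chosen with earlier results of these data known. The rule named all 6 genes, the 5 genes of at least 5 TPM most like Obp1a and the 5 most like Mup4 by Pearson r over the 8 libraries, the 3 most abundant genes of each list and any list gene called by genotype; of the list genes, only those beside which a result stands are printed. Alternatives were other pseudocounts, filters and scalings, a fit lacking sex, fits adding title number series or a replicate block, robust variance, the later-numbered libraries alone, and each library left out in turn. Limma-voom on recovered reads was added after seeing the data. Libraries share sex, age and title numbers across and within genotypes, the labels do not say which animals shared a litter or a day, and p-values measure only the spread between these libraries.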

Additional observations from a re-analysis of the deposited data

Results flagged for a closer look

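Among the most abundant genes of the lists, a library was singled out in a group of 4 when its gap to the nearest other, in TPM, exceeded Dixon's critical share of the group's range. Chance gives this in about 1 in 20 groups if values are normally distributed, and 60 groups were examined. The Obp1 group and the genes that follow it were left out, since they were chosen for their spread between libraries. Knockout replicate 2 stood below the other knockout libraries for the plasma cell genes Igha, at 619 TPM against 1154 to 1231, and Igkc, at 2147 TPM against 3904 to 4169. Heterozygous replicate 2, the library with the highest share of the Obp1 group, stood above the other heterozygous libraries for the supporting cell genes Sec14l3, at 966 TPM against 342 to 374, and Cyp2a5, at 3056 TPM against 631 to 947. Knockout replicate 4 stood above the other knockout libraries for the neuronal tubulin gene Tubb3, at 140 TPM against 95.6 to 98.2. On the log2 scale 4 of these 5 passed too, and Cyp2a5 did not.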

How the results depend on the processing

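In the order Gm14744, 5430402E10Rik, Obp1a, Obp1b, Gm14743 and Mup4, the knockout minus heterozygous log2 differences reversed to 0.29, 0.38, 0.15, 0.30, 0.19 and 0.28 without the sex term, to 5.84, 6.29, 5.76, 5.88, 5.83 and 4.85 with a title number series term, and to 4.68, 4.71, 4.57, 4.68, 4.54 and 4.64 in the later-numbered libraries. Male minus female differences reversed to −1.55, −2.11, −1.59, −1.60, −1.72 and −0.29 with the series term. Leaving out 1 library at a time gave genotype differences of −4.61 to 3.55, −4.22 to 3.84, −4.76 to 3.43, −4.48 to 3.5005, −4.48 to 3.39 and −4.93 to 2.83, and sex differences of −2.44 to 5.72, −2.90 to 5.16, −2.47 to 5.72, −2.40 to 5.58, −2.47 to 5.40 and −1.22 to 6.54. The cause of these reversals was not tested.

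The summed share differed by −5.999 percentage points, −9.81 to −1.47 with 1 library left out, and by 5.45 in the later-numbered libraries. None of the 6 genes was called by limma in any of the 20 alternatives (0 genes). Over all tested genes 119 calls became 72 without a filter, 59 with a filter at 5 TPM, 184 in the later-numbered libraries, and 83 to 254 with 1 library left out (202 without heterozygous replicate 2, 254 without heterozygous replicate 4, 190 without knockout replicate 4). The median r between the 6 genes stayed at 0.998 to 0.999 and their median SD at 3.63 to 4.38 in the alternatives run. Other pseudocounts, other scalings and limma-voom kept every genotype difference below 0. Other filters and robust variance leave the fitted differences as they are by construction, so their sign is no check.

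With the replicate block the differences were those without it (−1.05 to −0.19), which the layout of sexes over the replicate numbers fixes in advance. Limma adjusted p-values were 0.888 to 0.942, and 128 genes were called. The titles give no replicate numbers, and those used here only order the libraries. Same-numbered libraries deviated together with correlations of −0.06 to 0.097, and no pairing is read from the numbers. Counting error is small beside the spread between animals, and TPM keeps no record of reads shared between near-copies.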

Other observations

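Other secreted enzymes were among the 10 genes with an r of 0.9 or more with Obp1a, and they were picked out after their values were seen. All 3 described here averaged 5 TPM only through the libraries where the Obp1 group was high, so their r values are set in part by that filter. Klk1, tissue kallikrein, was at 34.9, 125, 2.43 and 3.63 TPM in heterozygous and 13.4, 19.2, 2.27 and 12.4 TPM in knockout replicates 1 to 4 (r = 0.92, and 0.88 without the 2 libraries farthest from the median). Car6, a secreted carbonic anhydrase known from saliva, was at 97.0, 52.9, 0.8999 and 0.812 TPM in heterozygous and 18.4, 19.996, 6.43 and 2.74 TPM in knockout replicates 1 to 4 (r = 0.91, and 0.82 without them). Dnase1, a secreted nuclease, was at 16.6, 10.8, 1.59 and 1.74 TPM in heterozygous and 3.02, 11.3, 1.80 and 1.70 TPM in knockout replicates 1 to 4 (r = 0.90, and 0.88 without them). Their rises were smaller than that of Obp1a, with a 10.4-fold range for Dnase1, 55.02-fold for Klk1 and 119-fold for Car6.

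The androgen-binding protein pair Scgb1b27 and Scgb2b27 stood next in order. Scgb2b27 was at 170, 206, 5.20 and 3.31 TPM in heterozygous and 69.2, 158, 57.8 and 8.42 TPM in knockout replicates 1 to 4 (r = 0.84, and 0.67 without the 2 farthest libraries), and Scgb1b27 had an r of 0.84 (0.69 without them). Scgb2b27 departed from the Obp1 group in knockout replicate 3, at 57.8 TPM, where Obp1a was near its lowest at 129 TPM.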
